A study of Mus musculus with 6 samples.

Results

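The integrin and laminin genes of the mouse aorta were taken from an RNA sequencing table of aortas from mice given angiotensin II (Ang II). The members are the rows whose symbol names an integrin alpha subunit, an integrin beta subunit from Itgb1 to Itgb8, or a laminin alpha, beta or gamma chain, with a protein-coding transcript type. This rule took 37 of the 41064 genes in the table, 26 integrin subunits (18 alpha and 8 beta) and 11 laminin chains, and it used no measured value. The families themselves were chosen with earlier results of these data known. Integrins are receptors of one alpha and one beta subunit that span the cell membrane and tie the extracellular matrix, or a ligand on another cell, to the actin cytoskeleton. Laminins are trimers of one alpha, one beta and one gamma chain that form the sheet of the basement membrane, on which endothelial cells rest and in which each arterial smooth muscle cell is wrapped. In the artery wall both families carry load between matrix and muscle, and several integrins that hold the alpha v subunit also release active TGF-beta from its latent form.

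The study set 3 aorta libraries from mice labelled JOSD2 knockout (KO) and given Ang II against 3 aorta libraries from wild type (WT) mice given Ang II. JOSD2 is a deubiquitinase, an enzyme that removes ubiquitin from proteins, and Ang II is a vasoconstrictor peptide used to provoke remodelling of arteries. Both groups received Ang II and untreated aortas were not analysed here, so every difference is one of labelled genotype under treatment. No source used here gives the strain, age, dose, duration or allele, nor which animal each library came from, so p-values measure only the spread between these libraries, which may be technical. Josd2 itself was present at 6.95, 6.38 and 6.86 scaled FPKM in the libraries labelled KO, against 9.59, 9.94 and 9.41 scaled FPKM in WT (log2 fold change -0.52, SE 0.07, edgeR adjusted p = 0.000244). Because its transcript was retained, every direction rests on the label.

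Total counts per library were 63612353 to 75886761, in a unit of about 4 counts per read pair. Mitochondrially encoded genes took 23.8% to 23.9% of counts in libraries labelled KO and 36.2% in WT. Levels are therefore given as scaled FPKM, FPKM put on the TMM scale of edgeR, in which the median log2 fold change of all genes is 0. Scaling by library totals moves that median to 0.41, so each change is relative to the median gene. The smooth muscle markers Myh11, Acta2, Tagln, Cnn1, Smtn, Lmod1 and Des summed to 6108 to 6134 scaled FPKM in libraries labelled KO and to 6639 to 6703 in WT. Of these 7 markers Myh11, Cnn1, Smtn and Lmod1 were called higher (log2 fold changes of 0.24 to 0.28), Acta2 (-0.30) and Des (-2.19) lower, and Tagln did not pass. Without Acta2 the sum was 3007 to 3033 in libraries labelled KO and 2848 to 2883 in WT, and with library totals 6 markers were higher and 1 lower. Adipocyte markers summed to 28.2 to 31.3 scaled FPKM in libraries labelled KO and to 19.5 to 20.9 in WT, so the libraries carry the muscle transcripts of the labelled tissue, although the extraction protocol speaks of adipose RNA. Lung markers were lower in libraries labelled KO (1.02 to 1.34 scaled FPKM) than in WT (10.1 to 12.9), and so were kidney markers (0.163 to 0.304 in libraries labelled KO and 9.60 to 10.3 in WT, nearly all of the WT level being Aqp2). Their part in the results was not tested.

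Of the 37 members, 36 passed the filter on low counts and 25 passed edgeR's quasi-likelihood test at a Benjamini-Hochberg adjusted p under 0.05. In libraries labelled KO, 11 were higher (30.6% of the members tested, against 13.2% of all 20132 genes tested) and 14 were lower (38.9%, against 11.5%). Taken in either direction, 69.4% of the members tested were called, against 24.7% of all genes. The groups did not overlap in 26 members (72.2%, against 41.1% of all genes). Abundant genes are called more often, and among genes with a mean count of at least 1000 the test called 17 of 20 members and 42.9% of 7261 genes. Since the families were chosen with earlier results known, these shares only describe them. The median log2 fold change of the members was -0.18, and single members moved in both directions. Integrins divided into 7 higher, 10 lower and 8 not passing, with 1 not tested, and laminins into 4 higher, 4 lower and 3 not passing. With library totals the calls divided into 11 higher and 4 lower integrins and 5 higher and 2 lower laminins, while 92.5% of all calls were higher, against 53.4% with TMM.

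**Figure D1:**
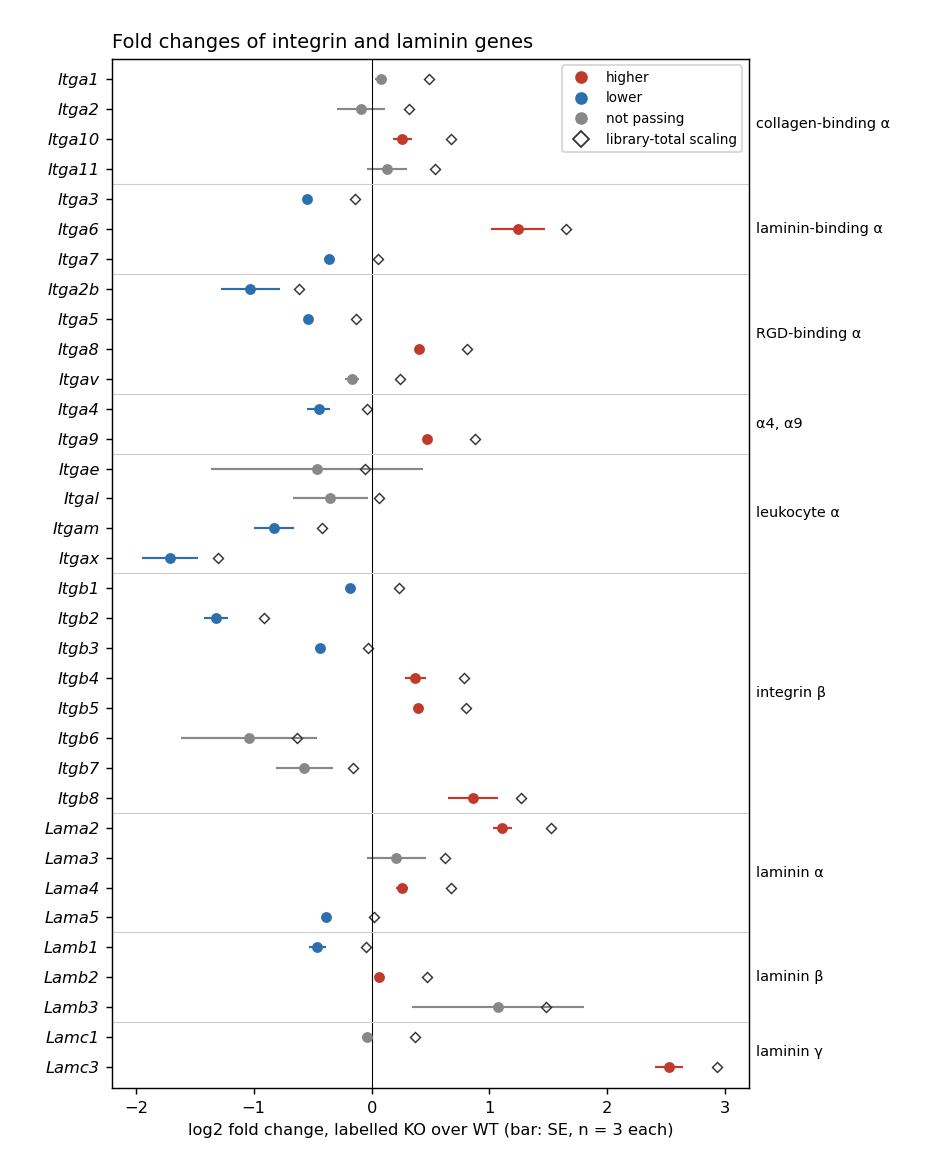
Log2 fold change of members (x axis, libraries labelled KO over WT; bars are standard errors, n = 3 each), grouped by role down the page. Filled circles use TMM scaling and open diamonds library totals. Lamc3 lies farthest to the right at 2.52 and Itgax farthest to the left at -1.71, and the diamonds lie about 0.41 to the right of the circles. Members left out include Lama1, at a few counts, and Itgad, not tested.

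Among the alpha subunits that bind the RGD motif of fibronectin, vitronectin and related proteins, the 2 abundant ones moved in opposite directions. Itga8, the receptor subunit for nephronectin that is typical of contractile smooth muscle, was at 173, 173 and 172 scaled FPKM in libraries labelled KO, against 133, 132 and 128 in WT. Its level was thus higher in every library labelled KO (log2 fold change 0.40, SE 0.01, edgeR adjusted p = 6.58e-09). Itga8 lies on chromosome 2 from 12106632 to 12301922 on the minus strand, and 5.0% of its exon bases face an antisense gene, E030013I19Rik. That gene had 11613, 12946 and 12029 counts in libraries labelled KO and 4546, 4823 and 4757 in WT, and no source used here says whether counting used strand. Summing both genes left a log2 ratio of 0.44.

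Itga5, the alpha subunit of the main fibronectin receptor, was at 80.8, 82.2 and 82.1 scaled FPKM in libraries labelled KO, against 117, 119 and 121 in WT. The groups were far apart relative to their spread, and Itga5 was 1.46-fold lower (log2 fold change -0.54, SE 0.02, edgeR adjusted p = 4.7e-09). It lies on chromosome 15 from 103344286 to 103366763 on the minus strand. Within a library the ratio of Itga8 to Itga5 needs no scaling between libraries. It was 2.14, 2.11 and 2.10 in libraries labelled KO, against 1.13, 1.11 and 1.06 in WT (exact permutation p = 0.1, two-sided, the smallest that 3 against 3 libraries allow). This and the other ratios given here were chosen after the values were seen. In RNA from whole aorta, fewer cells of a type and less RNA per cell cannot be told apart.

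The promoters of this opposing pair are shown because both genes read out in the same tissue with opposite sign. They are windows of 300 bases around the start of the gene in RefSeq, on build GRCm38.p6, read 5′ to 3′ on the minus strand, at chr2:12301895-12302194 for Itga8 and chr15:103366742-103367041 for Itga5. Capitals mark the SMAD-binding letters CAGAC on either strand.
Itga8: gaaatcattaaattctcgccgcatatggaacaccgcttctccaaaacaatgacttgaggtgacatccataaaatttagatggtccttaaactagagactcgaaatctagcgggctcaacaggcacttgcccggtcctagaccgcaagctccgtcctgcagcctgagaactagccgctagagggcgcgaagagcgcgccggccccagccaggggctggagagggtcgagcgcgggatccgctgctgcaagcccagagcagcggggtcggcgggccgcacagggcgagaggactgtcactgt
Itga5: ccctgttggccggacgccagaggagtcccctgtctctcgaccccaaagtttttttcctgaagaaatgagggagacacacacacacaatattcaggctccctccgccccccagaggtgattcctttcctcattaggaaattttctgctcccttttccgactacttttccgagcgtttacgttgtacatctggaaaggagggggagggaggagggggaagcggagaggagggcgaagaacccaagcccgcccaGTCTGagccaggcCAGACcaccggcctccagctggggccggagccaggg
The Itga5 window holds 2 matches and the Itga8 window none. CAGAC occurs in 49.6% of the 32851 promoter windows of this length, so a match is common. Windows were at hand for 23 members, and CAGAC occurred in those of 4 of 7 members called higher, 8 of 9 called lower and 5 of 7 not passing. The windows were also searched on both strands for the CArG box of serum response factor, for GGAATG, bound by TEAD factors, and for TGANTCA, bound by AP-1. These occur in 1.63%, 14.7% and 7.81% of all windows and in those of 2, 3 and 3 members. For 5 members, Itga3, Itga9, Itgb6, Lama2 and Lamb3, at least 1 window starts over 1 kb inside the gene as the deposited table places it. That of Itga9, in which a CAGAC and a TGANTCA match overlap, starts 105 kb inside. These are matches of letters in windows, not sites of binding.

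The remaining RGD-binding subunits were lower in level. Itgav, which pairs with several beta subunits, was at 6.68, 6.44 and 6.75 scaled FPKM in libraries labelled KO, against 8.21, 7.39 and 6.74 in WT. The groups overlapped and the gene did not pass (log2 fold change -0.17, SE 0.06, edgeR adjusted p = 0.08), although it passed without WT library 3 (edgeR adjusted p = 0.0129). Scaled by library totals, its log2 fold change was 0.24 (edgeR adjusted p = 0.00826). Itga2b, the platelet subunit of the fibrinogen receptor, was 2.05-fold lower, at 0.304 to 0.348 scaled FPKM in libraries labelled KO and 0.450 to 0.887 in WT (log2 fold change -1.03, SE 0.25, edgeR adjusted p = 0.0124). That call was lost without KO library 2 (adjusted p = 0.056) and without WT library 3 (adjusted p = 0.0607, log2 fold change -0.78 by edgeR), and with library totals it was at -0.62 (edgeR adjusted p = 0.0648). Of 6 platelet markers, of which Itga2b is itself one, 4 were called lower and none higher, the others called being Ppbp, Pf4 and Gp1ba. The summed level of the 6 markers was 7.61 to 11.6 scaled FPKM in libraries labelled KO and 17.6 to 19.6 in WT. Most of it was Pf4, at 7.09 to 11.0 in libraries labelled KO and 15.1 to 15.5 in WT. With library totals only Ppbp among these markers passed (-4.51), while Pf4 was at -0.36 and Gp1ba at -0.92. Of these markers Gp6 was at 0 in all libraries labelled KO. Their part in the result was not tested.

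Itga9 and Itga4 are the related subunits that also bind VCAM1, and they moved apart. Itga9, a receptor subunit for tenascin-C and osteopontin that is found on smooth muscle, was at 46.5, 46.4 and 47.3 scaled FPKM in libraries labelled KO, against 33.2, 33.9 and 34.0 in WT. The lowest library labelled KO was well above the highest WT library (log2 fold change 0.47, SE 0.02, edgeR adjusted p = 4.69e-08). Itga9 lies on chromosome 9 from 118606690 to 118901003 on the plus strand. Itga4, a subunit of leukocytes, was at 0.632 to 0.698 scaled FPKM in libraries labelled KO and at 0.836 to 0.979 in WT (log2 fold change -0.45, SE 0.10, edgeR adjusted p = 0.00846). With library totals that difference shrank to -0.04 (edgeR adjusted p = 0.788). An antisense gene, Cerkl, faces 8.0% of the exon bases of Itga4. Cerkl had 154, 253 and 96 counts in libraries labelled KO and 90, 90 and 118 in WT. Summing Itga4 and Cerkl gave a log2 ratio of -0.36.

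Of the laminin-binding alpha subunits 2 were lower and 1 was higher. Itga3 was at 20.9, 21.4 and 21.7 scaled FPKM in libraries labelled KO, against 31.5, 30.5 and 31.5 in WT. It was 1.46-fold lower, with no overlap between the groups (log2 fold change -0.55, SE 0.03, edgeR adjusted p = 2.75e-07), and lies on chromosome 11 from 95044474 to 95076797 on the minus strand. Itga7, the laminin receptor subunit of muscle cells, was at 18.2, 17.8 and 17.6 scaled FPKM in libraries labelled KO, against 21.6, 23.6 and 23.4 in WT. The groups did not overlap on this scale (log2 fold change -0.36, SE 0.04, edgeR adjusted p = 4.2e-05), whereas with library totals the value was 0.05 (edgeR adjusted p = 0.271).

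Itga6, a laminin receptor subunit of endothelium and epithelium, was at 2.69, 2.75 and 2.77 scaled FPKM in libraries labelled KO, against 0.781, 1.74 and 0.951 in WT. The libraries labelled KO were alike while the WT libraries spread widely, and every WT library was below the lowest labelled KO (log2 fold change 1.24, SE 0.23, edgeR adjusted p = 0.00215). Itga6 lies on chromosome 2 from 71745616 to 71858416 on the plus strand. Within a library, the ratio of Itga9 to Itga3 was 2.17 to 2.23 in libraries labelled KO and 1.05 to 1.11 in WT.

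Of the 4 collagen-binding alpha subunits 1 passed the test. Itga1, the main collagen receptor subunit of smooth muscle, was at 5.04, 5.32 and 5.04 scaled FPKM in libraries labelled KO, against 4.49, 4.92 and 5.17 in WT, and the groups overlapped (log2 fold change 0.08, SE 0.05, edgeR adjusted p = 0.318). With library totals it passed upward, at 0.49 (edgeR adjusted p = 1.75e-05). Itga11, a collagen receptor subunit of fibroblasts, was at 2.53, 1.72 and 1.95 scaled FPKM in libraries labelled KO, against 2.21, 1.55 and 1.91 in WT, and Itga2 was at 0.411 to 0.486 in libraries labelled KO and 0.392 to 0.579 in WT. Their groups overlapped and neither passed (edgeR adjusted p = 0.646 and 0.805). Itga10, best known from cartilage, was at 4.56, 4.51 and 4.25 scaled FPKM in libraries labelled KO, against 3.35, 3.98 and 3.78 in WT (log2 fold change 0.26, SE 0.08, edgeR adjusted p = 0.0372). This call was lost when any single library other than WT library 2 was left out, with edgeR adjusted p of 0.118, 0.115 and 0.0599 without KO libraries 1, 2 and 3, and of 0.0993 and 0.0648 without WT libraries 1 and 3. A gene on the same strand, Gm42957, shares 33.5% of its exon bases. Gm42957 had 127, 137 and 111 counts in libraries labelled KO and 201, 118 and 68 in WT. Summed with Itga10 it left a log2 ratio of 0.2.

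**Figure D2:**
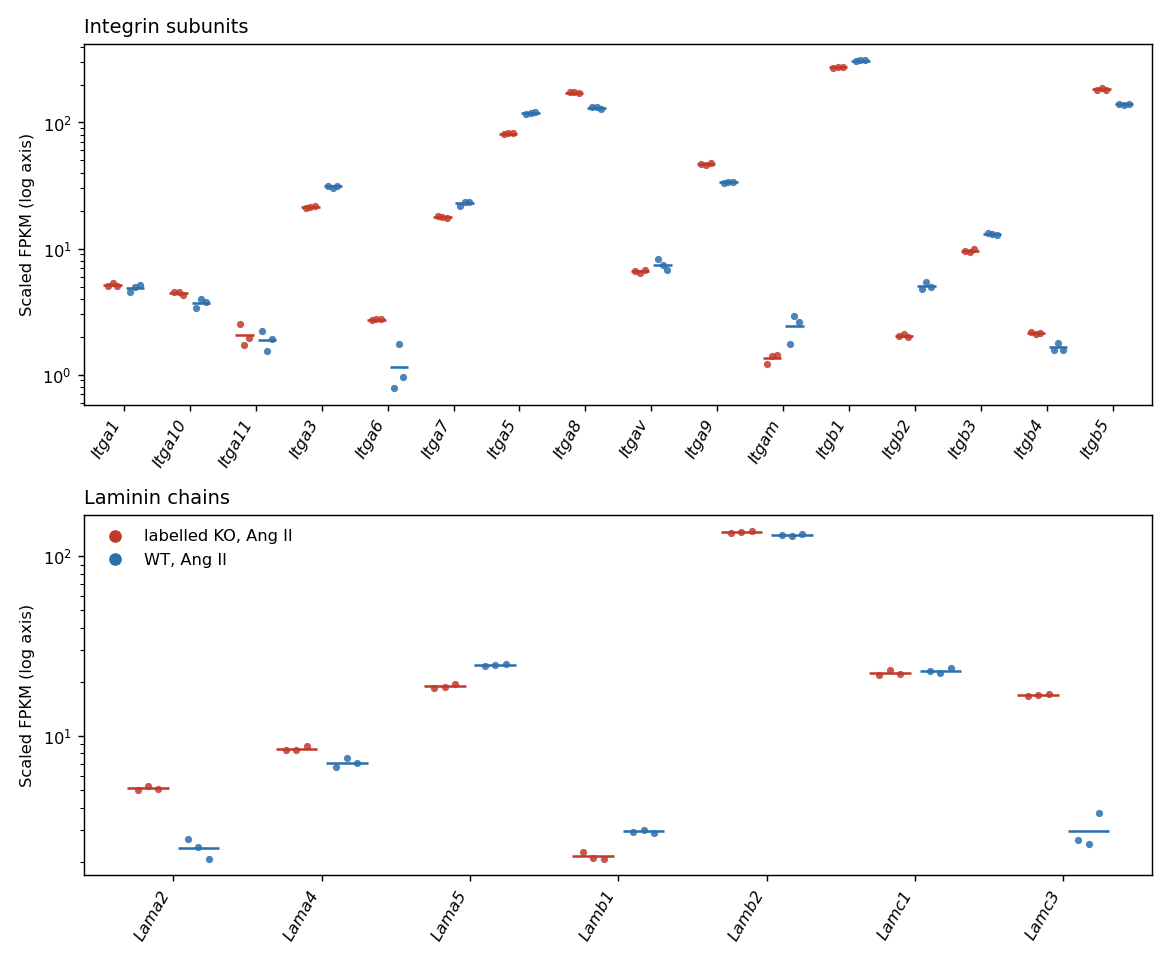
Scaled FPKM (log axis) in each library for the 16 integrin subunits and 7 laminin chains with a mean deposited FPKM of at least 1 in either group. Points are single libraries and lines are group means, with libraries labelled KO to the left of WT (n = 3 each). Itgb1 is the highest integrin in both groups, Lamb2 is the highest laminin chain, and the gap between the groups is widest for Lamc3.

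The beta subunits divided evenly, with 3 higher, 3 lower and 2 not passing. Itgb1, the partner of most alpha subunits and the most abundant member of all, was at 273, 274 and 274 scaled FPKM in libraries labelled KO, against 306, 311 and 311 in WT. The difference was small but larger than the spread (log2 fold change -0.18, SE 0.01, edgeR adjusted p = 1.13e-06), and its direction depended on the scaling, since library totals put it at 0.23 (edgeR adjusted p = 5.1e-08). Itgb5, which pairs with the alpha v subunit as a vitronectin receptor, was at 182, 187 and 182 scaled FPKM in libraries labelled KO, against 141, 137 and 141 in WT. It was higher in each library labelled KO than in any WT library (log2 fold change 0.39, SE 0.02, edgeR adjusted p = 7.06e-08). Itgb5 lies on chromosome 16 from 33829665 to 33949338 on the plus strand, and 10.5% of its longest transcript is shared with Gm38317, a gene of at most 907 counts. The ratio of Itgb5 to Itgb1 within a library was 0.668, 0.683 and 0.665 in libraries labelled KO, against 0.462, 0.442 and 0.453 in WT, without overlap and independent of the scaling between libraries.

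Itgb3, the beta subunit of the vitronectin receptor of migrating smooth muscle and of the platelet fibrinogen receptor, was at 9.57, 9.33 and 10.0 scaled FPKM in libraries labelled KO, against 13.4, 13.1 and 12.7 in WT. It was 1.35-fold lower without overlap (log2 fold change -0.44, SE 0.04, edgeR adjusted p = 3.46e-05), though with library totals the difference was -0.03 and did not pass (edgeR adjusted p = 0.688). Itgb4, the partner of the Itga6 product in hemidesmosomes, was at 2.18, 2.10 and 2.13 scaled FPKM in libraries labelled KO, against 1.58, 1.78 and 1.58 in WT (log2 fold change 0.37, SE 0.09, edgeR adjusted p = 0.0113). Itgb8, whose dimer with the alpha v subunit activates latent TGF-beta, was higher at a low level, at 0.584, 0.510 and 0.402 scaled FPKM in libraries labelled KO, against 0.305, 0.205 and 0.314 in WT (log2 fold change 0.86, SE 0.21, edgeR adjusted p = 0.0127). Without KO library 1 that call was lost (edgeR adjusted p = 0.0674). Itgb6, the other activator of latent TGF-beta and mainly epithelial, had a mean of 0.0453 scaled FPKM in libraries labelled KO and 0.0933 in WT and did not pass (edgeR adjusted p = 0.238).

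Endothelial markers were higher in libraries labelled KO. All 6 of Pecam1, Cdh5, Tek, Kdr, Egfl7 and Emcn were called higher, with a summed level of 78.9 to 80.0 scaled FPKM in libraries labelled KO and 47.8 to 49.1 in WT, and with log2 fold changes of 0.39 to 1.86. Beside them, Itga6 was at 1.24, Itgb4 at 0.37 and the laminin chain Lama4 at 0.26. These members were chosen after their values were seen, from 11 called higher and 14 called lower. Lama5, the broadly expressed chain of mature vessels, was among the lower ones at -0.39. The part of the endothelial share of RNA in these differences was not tested.

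Of the 5 leukocyte alpha subunits 2 were lower, 2 did not pass and 1 was not tested, and the beta subunit Itgb2 was lower. Itgb2, the beta subunit of the main leukocyte-specific integrins, was at 2.01, 2.10 and 1.99 scaled FPKM in libraries labelled KO, against 4.75, 5.43 and 5.0 in WT. It was 2.49-fold lower (log2 fold change -1.32, SE 0.10, edgeR adjusted p = 3.36e-06) and lies on chromosome 10 from 77530252 to 77565686 on the plus strand. Itgam, its partner in the complement receptor of macrophages and neutrophils, was at 1.22, 1.41 and 1.44 scaled FPKM in libraries labelled KO, against 1.76, 2.91 and 2.60 in WT (log2 fold change -0.83, SE 0.17, edgeR adjusted p = 0.00442). Although the groups did not overlap, the counts of Itgam are uncertain, since Gm49368 shares 68.7% of its exon bases on the same strand. That gene had 0 counts in every library labelled KO and 335, 0 and 160 in WT, and summing both gave a log2 ratio of -1.09. With library totals Itgam alone was at -0.42 and did not pass (edgeR adjusted p = 0.0616).

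Itgax, the subunit typical of dendritic cells and some macrophages, was at 0.175 to 0.243 scaled FPKM in libraries labelled KO and 0.596 to 0.830 in WT, a 3.27-fold difference (log2 fold change -1.71, SE 0.24, edgeR adjusted p = 0.000369). Itgal, at 0.150 to 0.323 scaled FPKM in libraries labelled KO and 0.224 to 0.363 in WT, and Itgae, at 0.0131 to 0.0523 in libraries labelled KO and 0.0340 to 0.0478 in WT, are subunits of lymphocytes and did not pass (edgeR adjusted p = 0.496 and 0.765), and Itgad was not tested, with 2 read pairs in each group. Itgb7, a partner of the Itga4 and Itgae products on lymphocytes, was lower in each library labelled KO (0.461 to 0.614 scaled FPKM) than in any WT library (0.756 to 0.915), yet did not pass (edgeR adjusted p = 0.109). Macrophage markers moved with these genes: 5 of 6 were called lower and none higher, and their summed level was 88.3 to 92.4 scaled FPKM in libraries labelled KO and 173 to 177 in WT. With library totals Csf1r no longer passed (-0.05) and Mrc1 turned to 0.21. No macrophage marker was at 0 in either group, and their part in the result was not tested. Markers of neutrophils, T cells, B cells, dendritic cells, epithelium, skeletal and cardiac muscle and mesothelium summed to at most 8.67 scaled FPKM per list in any library. Neutrophil markers summed to 7.97 to 8.67 in libraries labelled KO and 4.02 to 7.29 in WT. Dendritic cell markers summed to 1.61 to 1.88 in libraries labelled KO and 1.39 to 1.75 in WT. No marker of these neutrophil and dendritic cell lists was called in either direction.

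**Figure D3:**
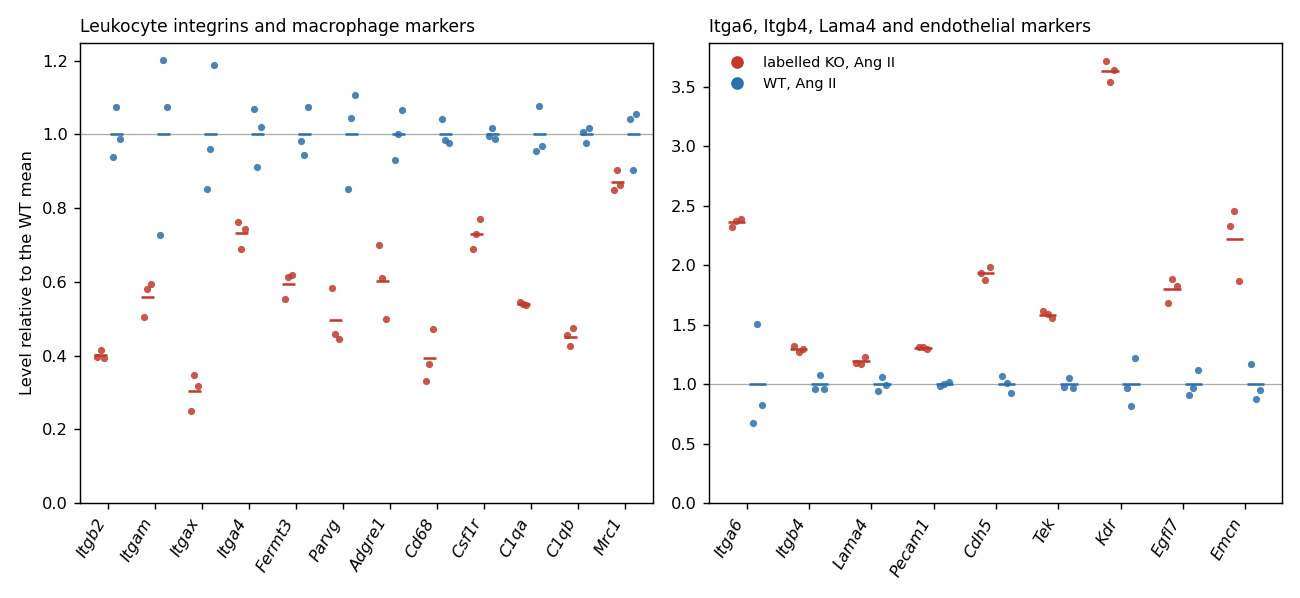
Level in each library relative to the WT mean of the same gene (y axis, 1 is the WT mean) for leukocyte integrins, their adaptors Fermt3 and Parvg and macrophage markers (left), and for Itga6, Itgb4, Lama4 and endothelial markers (right). Points are libraries and lines are group means, labelled KO left of WT (n = 3 each). All the leukocyte integrins and macrophage markers drawn lie below the WT mean in each library labelled KO, and all genes of the right panel lie above it. The members drawn in both panels were chosen after their values were seen.

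The summed level of the alpha subunits was nearly equal in the groups, at 365 ± 0.498 scaled FPKM in libraries labelled KO and 362 ± 2.17 in WT, and so was that of the beta subunits, at 472 ± 2.94 in libraries labelled KO and 470 ± 2.31 in WT (SD, n = 3 each). This near equality holds on the TMM scale, whereas with library totals both sums were higher in libraries labelled KO. Shares within a library do not depend on that scaling, and they differed. Itga8 made up 47.4% ± 0.190 of the alpha subunit FPKM in libraries labelled KO and 36.1% ± 0.772 in WT, while Itga5 made up 22.4% ± 0.192 in libraries labelled KO and 32.9% ± 0.442 in WT (SD, n = 3 each). Together they held 69.8% in libraries labelled KO and 69.0% in WT, a nearly constant sum. Itga9 held 12.8% in libraries labelled KO and 9.30% in WT, and Itga3 held 5.85% in libraries labelled KO and 8.61% in WT. Of the beta subunit FPKM, Itgb1 held 57.9% ± 0.274 in libraries labelled KO and 65.8% ± 0.415 in WT, and Itgb5 held 38.9% ± 0.363 in libraries labelled KO and 29.8% ± 0.476 in WT (SD, n = 3 each). No library of one group overlapped the other in these 6 shares (exact permutation p = 0.1 each, two-sided, the smallest possible). The shares are not independent of each other. Itgb1 and Itgb5 together held 96.8% in libraries labelled KO and 95.5% in WT, so either share nearly sets the other. The ratio of Itgb5 to Itgb1 restates the same difference.

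The laminin alpha chains, which carry the sites that integrins bind, changed in both directions. Lama5, the broadly expressed chain of mature vessels, was at 18.5, 18.8 and 19.5 scaled FPKM in libraries labelled KO, against 24.4, 24.8 and 25.2 in WT. The groups did not overlap (log2 fold change -0.39, SE 0.03, edgeR adjusted p = 1.57e-06), while with library totals the value was 0.02 (edgeR adjusted p = 0.614). Lama2, the chain of muscle basement membranes whose loss causes muscular dystrophy, was at 5.04, 5.28 and 5.10 scaled FPKM in libraries labelled KO, against 2.68, 2.40 and 2.08 in WT. It was 2.15-fold higher, with every library labelled KO well above all of WT (log2 fold change 1.11, SE 0.08, edgeR adjusted p = 1.48e-06), and lies on chromosome 10 from 26980036 to 27619758 on the minus strand. Lama4, a chain of endothelial and muscle basement membranes, was at 8.37, 8.35 and 8.77 scaled FPKM in libraries labelled KO, against 6.73, 7.54 and 7.06 in WT, a small difference without overlap (log2 fold change 0.26, SE 0.05, edgeR adjusted p = 0.00203).

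Shares within the library differed as well. Lama5 held 57.6% ± 0.234 of the alpha chain FPKM in libraries labelled KO and 71.6% ± 0.822 in WT (SD, n = 3 each). Lama4 held 25.8% ± 0.255 in libraries labelled KO and 20.5% ± 0.994 in WT, and Lama2 held 15.6% ± 0.522 in libraries labelled KO and 6.90% ± 0.929 in WT (SD, n = 3 each). The ratio of Lama5 to Lama2 was 3.67, 3.56 and 3.83 in libraries labelled KO, against 9.12, 10.3 and 12.1 in WT (exact permutation p = 0.1, two-sided, the smallest possible). Lama3, an epithelial chain, was at 0.282 to 0.365 scaled FPKM in libraries labelled KO and 0.176 to 0.346 in WT and did not pass (edgeR adjusted p = 0.609). Lama1, the chain of the early embryo, had 2 read pairs over the libraries labelled KO and 24 over WT, a ratio of 0.0586 (95% counting interval 0.00671 to 0.236, counting error only). It passed the test (edgeR adjusted p = 0.0325), but the call was lost without KO libraries 2 or 3 (edgeR adjusted p = 0.0636 and 0.11) and without WT libraries 1, 2 or 3 (edgeR adjusted p = 0.0823, 0.0556 and 0.113).

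The promoters of Lama2 and Lama5 are shown as the pair of alpha chains whose shares differed most in opposite directions. The RefSeq windows, on build GRCm38.p6 and read 5′ to 3′ on the minus strand, lie at chr10:27616893-27617192 for Lama2 and chr2:180225810-180226109 for Lama5. Capitals mark CAGAC on either strand and, in Lama2, also the CArG box. The Lama2 window lies inside the gene as the deposited table places it, downstream of the start given there.
Lama2: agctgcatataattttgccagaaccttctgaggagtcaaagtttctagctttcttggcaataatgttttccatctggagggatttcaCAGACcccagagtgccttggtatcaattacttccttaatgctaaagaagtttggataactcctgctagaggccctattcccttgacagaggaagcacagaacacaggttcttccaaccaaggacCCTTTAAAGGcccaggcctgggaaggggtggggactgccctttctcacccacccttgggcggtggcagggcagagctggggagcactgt
Lama5: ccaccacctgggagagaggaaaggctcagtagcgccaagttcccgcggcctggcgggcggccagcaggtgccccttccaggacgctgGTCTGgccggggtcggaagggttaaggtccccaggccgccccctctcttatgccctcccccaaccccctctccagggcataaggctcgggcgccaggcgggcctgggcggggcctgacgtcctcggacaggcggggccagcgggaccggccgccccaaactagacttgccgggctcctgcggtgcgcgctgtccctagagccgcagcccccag
Each window holds 1 match to CAGAC, and that of Lama2 also holds 1 CArG box, a motif in 1.63% of all windows. They differ in base composition, with a GC content of 50.3% and 1 CG dinucleotide in the Lama2 window and of 72.7% and 24 in that of Lama5.

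Among the beta chains Lamb2 dominated in all libraries. This chain of mature arterial and muscle basement membranes was at 135, 137 and 138 scaled FPKM in libraries labelled KO, against 132, 129 and 133 in WT. The 1.04-fold difference passed narrowly (log2 fold change 0.06, SE 0.02, edgeR adjusted p = 0.0221), and not without KO libraries 2 or 3 (edgeR adjusted p = 0.0709 and 0.0708) or WT library 2 (edgeR adjusted p = 0.0576). Lamb1, the more widespread beta chain, was at 2.27, 2.10 and 2.07 scaled FPKM in libraries labelled KO, against 2.94, 3.01 and 2.90 in WT (log2 fold change -0.46, SE 0.07, edgeR adjusted p = 0.000374). With library totals it was at -0.05 (edgeR adjusted p = 0.588). Lamb2 held 98.4% ± 0.0839 of the beta chain FPKM in libraries labelled KO and 97.8% ± 0.0838 in WT (SD, n = 3 each), and Lamb3, an epithelial chain with means of 0.0495 scaled FPKM in libraries labelled KO and 0.0235 in WT, did not pass (edgeR adjusted p = 0.342).

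The gamma chains held the largest change among the members with a mean FPKM of at least 1. Lamc3, a gamma chain known from nerve, retina and vessels of the brain, was at 16.8, 16.9 and 17.2 scaled FPKM in libraries labelled KO, against 2.63, 2.52 and 3.74 in WT. It was 5.72-fold higher, and the spread within either group was small beside that gap (log2 fold change 2.52, SE 0.12, edgeR adjusted p = 7.26e-08). Counts behind it were 9733, 10617 and 10326 in libraries labelled KO and 1043, 1032 and 1732 in WT. Lamc3 lies on chromosome 2 from 31887291 to 31946539 on the plus strand, and the antisense gene that faces 6.3% of its exon bases, Gm13441, had at most 9 counts in a library.

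Lamc1, the gamma chain of most laminins, was at 21.8, 23.4 and 22.2 scaled FPKM in libraries labelled KO, against 22.9, 22.5 and 23.9 in WT. These groups overlapped (log2 fold change -0.04, SE 0.04, edgeR adjusted p = 0.472), although library totals put it at 0.37 (edgeR adjusted p = 7.34e-06). The ratio of Lamc3 to Lamc1 was 0.771, 0.723 and 0.776 in libraries labelled KO, against 0.115, 0.112 and 0.156 in WT (exact permutation p = 0.1, two-sided, the smallest possible). Lamc3 thus held 42.7% ± 0.942 of the gamma chain FPKM in libraries labelled KO and 11.0% ± 1.91 in WT (SD, n = 3 each). The summed level of the gamma chains was 39.8 ± 0.841 scaled FPKM in libraries labelled KO and 26.7 ± 1.32 in WT, 1.49-fold apart (SD, n = 3 each). For the alpha chains it was 32.9 ± 0.771 in libraries labelled KO and 34.6 ± 0.408 in WT, and for the beta chains 139 ± 1.44 in libraries labelled KO and 134 ± 2.02 in WT (SD, n = 3 each). With library totals the gamma chain gap widened, and the alpha and beta chain sums were both higher in libraries labelled KO.

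**Figure D4:**
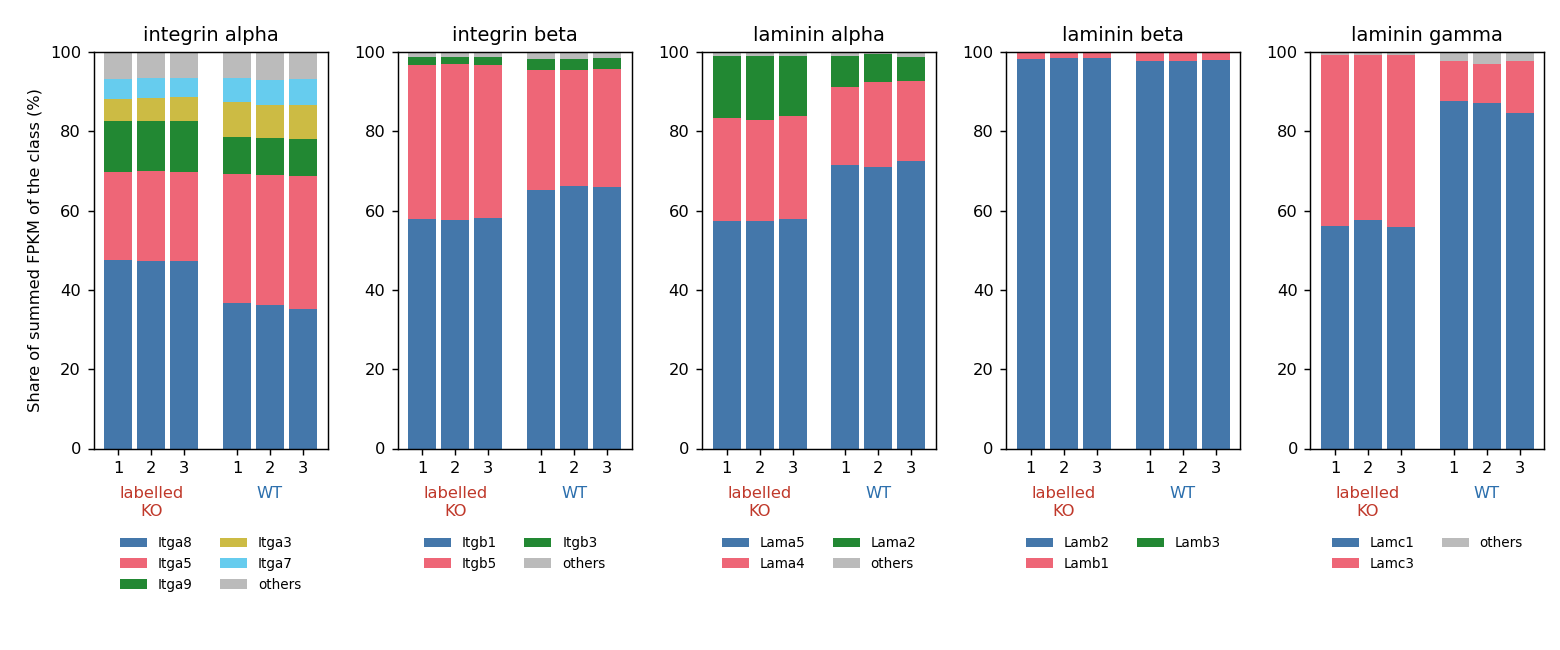
Share of each chain in the summed FPKM of its class (y axis, percent) in single libraries, with the 3 labelled KO left of the 3 WT in each panel. Itga8 takes 47.4% of the alpha subunits in libraries labelled KO and 36.1% in WT, and Lamc3 takes 42.7% of the gamma chains in libraries labelled KO and 11.0% in WT.

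Genes that work with these receptors inside the cell were called about as often as other abundant genes. This list and those that follow were chosen with earlier results of these data known, so their shares only describe them. Of 26 genes of the adhesion complex, the adaptors that link integrins to actin, 5 were higher, 8 were lower and 13 did not pass (50.0% called, against 24.7% of all genes), with a median log2 fold change of -0.08 against 0 for all genes. Of the 23 with a mean count of at least 1000, 47.8% were called, against 42.9% of all such genes. With library totals 22 were higher and 2 lower. Those with the smallest p were Tns1, a tensin that binds actin and the tails of beta subunits (0.43, edgeR adjusted p = 1.49e-09), and the actin crosslinker Flna (0.15, edgeR adjusted p = 1.65e-08). Next came the crosslinker Actn4 (-0.34, edgeR adjusted p = 6.9e-08), whose sign turned with library totals (0.07), and Zyx, a protein of stretched actin fibres (0.30, edgeR adjusted p = 1.87e-06). Tln1, the talin that activates integrins, was at -0.19 and at 0.22 with library totals (edgeR adjusted p = 8.02e-05 and 1.26e-05). Fermt3 and Parvg, the kindlin and parvin of blood cells, had the lowest values of the list at -0.75 and -1.01 (edgeR adjusted p = 0.000676 and 0.00743). Tln1, Fermt3 and Parvg were chosen after their values were seen.

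Of 17 other components and receptors of the basement membrane, 6 were higher, 10 were lower and 1 did not pass (94.1% called, against 24.7% of all genes). Of the 16 with a mean count of at least 1000, 93.8% were called, against 42.9% of all such genes. Because earlier results were known when the list was chosen, these shares are a description only. The median was -0.12 (12 higher and 3 lower with library totals). Smallest p-values belonged to Sparc, a collagen-binding matrix protein (-0.46, edgeR adjusted p = 3.51e-11), Col4a1 (-0.67, edgeR adjusted p = 7.31e-11), Col4a2 (-0.59, edgeR adjusted p = 8.66e-10) and Col18a1 (-0.23, edgeR adjusted p = 2.42e-07). With library totals Sparc stood at -0.05, Col4a1 at -0.26 and Col4a2 at -0.18, and Col18a1 turned to 0.18. Collagen IV, the network that laminin sheets lie against, divided by chain. Col4a1 was at 122, 124 and 125 scaled FPKM in libraries labelled KO, against 198, 193 and 197 in WT, and Col4a2 was at 126, 128 and 127 in libraries labelled KO, against 188, 190 and 197 in WT. Col4a6 was at 19.1, 18.8 and 19 scaled FPKM in libraries labelled KO, against 11.5, 11.4 and 10.4 in WT (log2 fold change 0.77, SE 0.04, edgeR adjusted p = 2.5e-07), and Col4a3, Col4a4 and Col4a5 were higher as well, at 0.45, 0.61 and 0.26. These 4 chains, Col4a3 to Col4a6, were chosen after their values were seen.

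Of 24 other integrin ligands tested, 8 were higher, 12 were lower and 4 did not pass (83.3% called, against 24.7% of all genes). All 17 with a mean count of at least 1000 were called, against 42.9% of all such genes. Here too the list was chosen with earlier results known, and the shares are a description only. The median was -0.14 (14 higher and 6 lower with library totals). Fn1, the fibronectin bound through Itga5, was at 388, 390 and 385 scaled FPKM in libraries labelled KO, against 651, 656 and 653 in WT (log2 fold change -0.75, SE 0.01, edgeR adjusted p = 6.87e-15). Thbs1, thrombospondin, was at 13, 12.6 and 13.3 scaled FPKM in libraries labelled KO, against 64.2, 66 and 65.4 in WT (log2 fold change -2.33, edgeR adjusted p = 3.35e-13). Spp1, the osteopontin bound through Itga9 and alpha v dimers and made by macrophages among other cells, was at 6.48, 7.59 and 7.68 scaled FPKM in libraries labelled KO, against 188, 178 and 181 in WT (log2 fold change -4.65, edgeR adjusted p = 7.59e-13). All 3 ligands were thus lower in every library labelled KO, and they remained lower with library totals, at -0.34, -1.92 and -4.24. Ccn3, a matricellular protein, was higher (0.69, edgeR adjusted p = 1.99e-11).

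Set beside their receptors, ligands and subunits did not always share a direction. Npnt, the nephronectin bound through Itga8, was at 0.41 beside 0.40 for Itga8, and Fn1 was at -0.75 beside -0.54 for Itga5. Tnc, the tenascin bound through Itga9, was at -1.30 beside 0.47 for Itga9, and Vcam1 was at -1.49 beside -0.45 for Itga4. These pairs, log2 fold changes of libraries labelled KO over WT, were chosen after the values were seen, and each of these ligands passed the test (edgeR adjusted p = 9.55e-09, 6.87e-15, 1.99e-11 and 6.4e-10). No relation between ligand and receptor was tested.

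**Figure D5:**
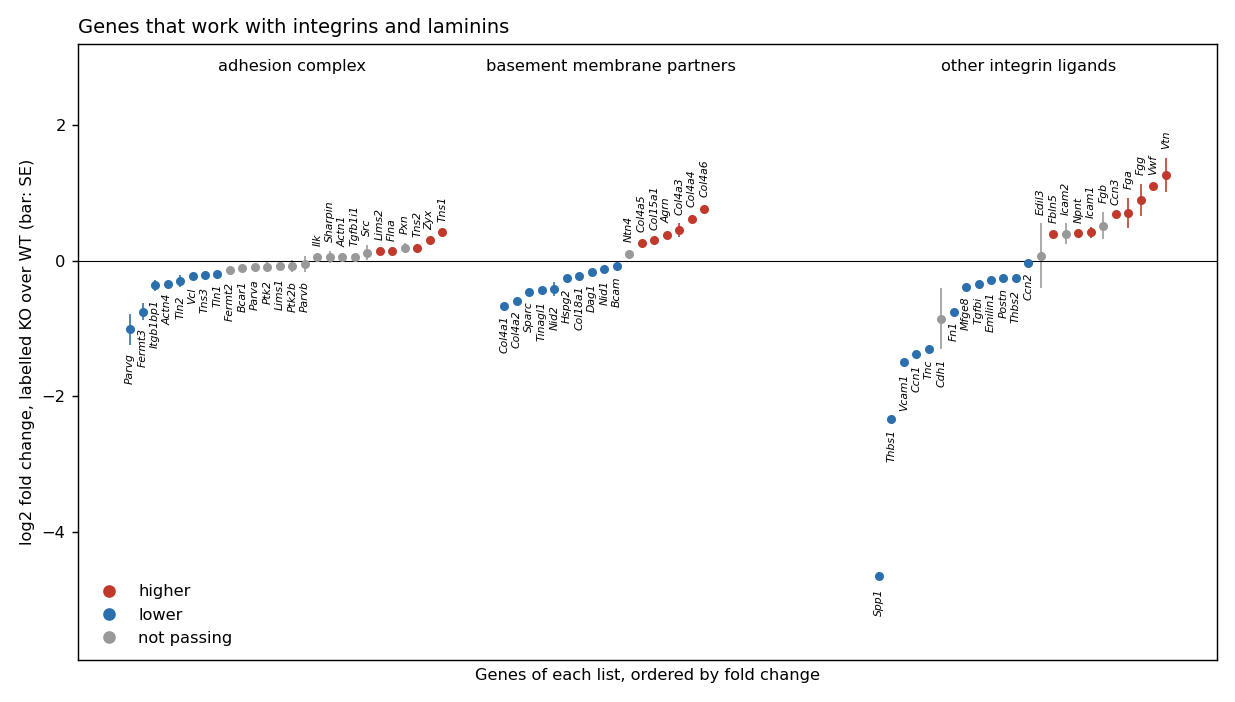
Log2 fold change (y axis, libraries labelled KO over WT; bars are standard errors, n = 3 each) of genes of the adhesion complex, other basement membrane components and other integrin ligands, ordered within each list. Spp1 and Thbs1 lie lowest, at -4.65 and -2.33, while the adhesion complex stays between -1.01 and 0.43.

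The direction of 17 of the 25 called members held, with the test passed each time, under TMM, DESeq2 size factors, library totals and totals without mitochondrial genes. They were the 11 members called higher and 6 called lower, among them Itga3, Itga5, Itgb2, Itgax and Lama1. Over all 16 alternatives, 13 members, 8 higher and 5 lower, kept direction and call wherever they had a value. Of the 17, Itga10, Itgb8, Lamb2 and Lama1 lost their call in at least 1 alternative, and Lama1 kept it in 6 of 14. The remaining called members lost their call or turned in sign under a scaling.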

How the data were processed

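Aorta RNA of 6 libraries was sequenced, 3 labelled JOSD2 KO and 3 labelled WT, all from mice given Ang II. Per the labels' protocols, polyadenylated RNA was selected and read in pairs by Illumina sequencing. HISAT2 2.0, Bowtie 0.12.2 and genome build mm8 are named, per the submitters' processing notes. No source used here names the counting tool, strand setting or annotation. Gene coordinates in the deposited table equal those of GENCODE M21 on GRCm38 for 34 of 37 members, and coordinates are given as deposited. The values of 1 member are not reported here.

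Each library has a count column and an FPKM column, per the file headers. The authors' counts are treated as estimated counts, written as whole numbers before they were deposited, of about 4 per read pair, because 1091 to 1137 genes per library have 4 counts against 792 to 867 with 3 and 472 to 519 with 5. Rounding changed none of them. The deposited FPKM are fragments per kilobase scaled by the authors to each library's total. Scaled FPKM are TMM-scaled CPM divided by the length implied by count and FPKM, which is the deposited FPKM times 0.8668 to 0.8694 in libraries labelled KO and 1.1526 to 1.1544 in WT.

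Genes passing filterByExpr were tested with the quasi-likelihood test of edgeR 4.0.16 in R 4.3.3, with p-values adjusted by Benjamini-Hochberg over 20132 genes and a threshold of 0.05. Alternatives were other scalings, DESeq2 1.42.0, limma 3.58.1 on log2(FPKM + 1) and log2(FPKM + 0.1), other filters, counts divided by 4, a replicate block and each library left out. Of these steps, only the edgeR test was tried on simulated counts with planted changes. Shares of 37 chains and 9 ratios were compared by exact permutation over libraries, in which no p can go below 0.1, so none was adjusted. Replicates differed by more than sampling noise, with a median chi-square 2.22 to 2.60 times that expected. Similar transcripts were sought with BLAST+ 2.17.0 at 97% identity over 100 bases.

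Members and lists were chosen with earlier results of these data known. Values in every library are given for called members whose higher group averages at least 1 FPKM, and of each partner list up to 4 genes with the smallest p are named. Of the 27 adhesion complex symbols 26 were in the table, of the 17 basement membrane symbols all, and of the 28 ligand symbols 25. The ligand symbols not found, Nov, Cyr61 and Ctgf, are older names of Ccn3, Ccn1 and Ccn2, which were found.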

Additional observations from a re-analysis of the deposited data

How the results depend on the processing

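All 25 called members kept their direction and their call under DESeq2 size factors and under DESeq2's own test, which called 27. Library totals carry the different mitochondrial share into every gene: edgeR then called 10193 genes, 92.5% of them higher, against 4981 and 53.4% with TMM, and 78.1% were higher with totals that leave out mitochondrial genes. Limma called 10314 genes with log2(FPKM + 1) and 10196 with log2(FPKM + 0.1), 91.6% and 91.5% of them higher. Members then divided into 16 higher and 6 lower with library totals, 13 and 12 without mitochondrial genes and 15 and 5 with limma, against 11 and 14. Among members that passed with TMM or with the alternative, signs turned with library totals for Itga7 (log2 fold change 0.05), Itgav (0.24), Itgb1 (0.23), Lama5 (0.02) and Lamc1 (0.37), with limma on log2(FPKM + 1) for Itga7 (0.05), Itgav (0.21), Itgb1 (0.23), Lama5 (0.02) and Lamc1 (0.35), with limma on log2(FPKM + 0.1) for Itga7 (0.05), Itgav (0.24), Itgb1 (0.23), Lama5 (0.02) and Lamc1 (0.37), and without mitochondrial genes for Lamc1 (0.12). Of members passing neither, Itga2 (0.32) and Itgal (0.06) turned with library totals and also with both limma fits, Itga2 turned without mitochondrial genes (0.07), and Itga2, Itga11 and Lama3 each turned when 1 library was left out (WT library 3, KO library 1 and WT library 2 in that order). The filter on a mean FPKM of 1 left 7 laminin chains, of which 5 were called.

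Leaving out one library at a time gave 3756 to 4458 genes, 21 to 23 members, 15 to 17 integrin subunits and 6 to 8 laminin chains called. Same-numbered libraries did not deviate together (correlations of -0.001, -0.029 and -0.018), and with the replicate number as a block 4560 genes and 24 members were called, Itga10 being lost (edgeR adjusted p = 0.0542). With 3 libraries a group and about 4 counts per read pair, members under 1 FPKM rest on few read pairs.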
